A study of Homo sapiens with 24 samples.

Results

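The 9 genes described here belong to the machinery that BET inhibitors act on, and were followed across 4 prostate cancer cell lines: the BET proteins BRD2 and BRD3, the elongation kinase CDK9 with its cyclins CCNT1 and CCNT2, the kinase inhibitors HEXIM1 and HEXIM2, and the 7SK partners LARP7 and MEPCE. The genes were chosen by role, and every probe set that the array's annotation gave to just 1 of these symbols was taken, which gave 24 probe sets among 54613 tested and 9 genes among 19775 named. RNA had been profiled on 24 Affymetrix U133 Plus 2.0 arrays, with 2 biological replicates of each line in DMSO vehicle, 0.5 µM and 10 µM I-BET762 (GSK525762A) for 24 hours. I-BET762 is a small molecule that occupies the acetyl-lysine pockets of BET bromodomains, and the vehicle group of each line received DMSO without it. LNCaP came from a lymph node metastasis, VCaP and PC3 came from bone metastases, and NCI-H660 derives from a neuroendocrine tumour of the prostate; each is a single established line without any engineered change in the labels.

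BET proteins read acetylated histones through paired bromodomains and help to bring the kinase complex P-TEFb to promoters. P-TEFb is CDK9 with cyclin T1 or T2, and it phosphorylates RNA polymerase II and the factors that hold it paused, which lets the polymerase elongate. A large share of P-TEFb is kept inactive by HEXIM1 or HEXIM2 on the small nuclear RNA 7SK, whose ends are capped by MEPCE and bound by LARP7. HEXIM1 is widely used as a marker of exposure to BET inhibitors.

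The lines were first checked against genes that define them. ERG, which a gene fusion drives in VCaP and NCI-H660, had a vehicle signal of 6984 ± 142 (SD, n = 2) on the LNCaP-labelled arrays and 18.1 ± 2.8 (SD, n = 2) on the VCaP-labelled ones. The opposite held for ETV1, a gene rearranged in LNCaP, at 43.0 ± 14.8 and 375 ± 45.9 (SD, n = 2). Both sets of 6 arrays therefore went against their labels, and they are called by what their labels say, the LNCaP-labelled and the VCaP-labelled arrays, throughout. ERG gave only 138 ± 6.2 (SD, n = 2) in NCI-H660, although the neuroendocrine gene CHGA was bright there at 2568 ± 33.0 (SD, n = 2), and CAV1 at 17769 ± 907 (SD, n = 2) marked PC3. The luminal genes KLK2, KLK3, TMPRSS2 and HOXB13 were bright in vehicle on both sets of arrays.

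Signals are MAS5 intensities that the authors scaled to a trimmed mean of 500 on every array, and median signals lay between 72.24 and 100.3. A signal of 100 was reached by 44.35% to 50.05% of probe sets, and the log2 signals of replicates had correlations of 0.9338 to 0.9528 over all probe sets. A comparison was called passed when the limma adjusted p was under 0.1 and the mean signal reached 100 in either group. Each gene is given by its brightest suitable probe set. Of the 24 probe sets, 17 reached 100 in all 12 groups, 5 in some and 2 in none. Arrays of bulk RNA on a common scale cannot tell a change in the share of cells from a change in RNA per cell.

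In the human genome (GRCh38.p14) HEXIM1 lies at chr17:45148475-45152099 and HEXIM2 follows it at chr17:45160174-45170040, 8075 bases further on. BRD2 is at chr6:32968594-32981505, BRD3 at chr9:134030305-134068548 and CDK9 at chr9:127786034-127790792. The cyclins CCNT1 and CCNT2 are at chr12:48688458-48716707 and chr2:134918822-134959342, LARP7 at chr4:112637143-112657586 and MEPCE at chr7:100428790-100434118. These are whole-gene spans from RefSeq, since the array values carry no coordinates.

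The 250 bases before the first listed start of HEXIM1, BRD2 and HEXIM2 are shown because HEXIM1 and BRD2 rose together while HEXIM2, the neighbour and paralogue of HEXIM1, did not pass in any comparison with vehicle. All are RefSeq sequence of GRCh38.p14 on the plus strand, from chr17:45148225-45148474, chr6:32968344-32968593 and chr17:45159924-45160173. Capitals mark matches, on either strand, to the motifs searched: the TATA box as TATAAA, the CCAAT box by its own letters, the GC box as GGGCGG, and the E box as CACGTG.
HEXIM1: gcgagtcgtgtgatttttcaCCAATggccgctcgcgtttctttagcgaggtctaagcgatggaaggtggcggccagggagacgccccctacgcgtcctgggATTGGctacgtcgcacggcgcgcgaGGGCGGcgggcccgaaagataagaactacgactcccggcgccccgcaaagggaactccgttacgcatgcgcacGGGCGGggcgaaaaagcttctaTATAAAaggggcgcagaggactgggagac
BRD2: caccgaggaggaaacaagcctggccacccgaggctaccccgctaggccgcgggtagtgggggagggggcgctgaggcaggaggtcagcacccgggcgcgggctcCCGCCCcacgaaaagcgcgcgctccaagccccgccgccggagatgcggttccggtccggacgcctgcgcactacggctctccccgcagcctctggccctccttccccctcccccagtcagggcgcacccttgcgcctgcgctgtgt
HEXIM2: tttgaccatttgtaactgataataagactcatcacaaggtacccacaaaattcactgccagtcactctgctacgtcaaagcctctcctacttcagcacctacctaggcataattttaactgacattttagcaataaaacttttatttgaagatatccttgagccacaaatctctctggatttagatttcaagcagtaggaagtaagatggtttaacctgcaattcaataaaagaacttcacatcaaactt
HEXIM1 held TATAAA with its first base at position -29 from the start, GGGCGG at -124 and at -51, and CCAAT at -230 and, on the minus strand, at -149. BRD2 held GGGCGG once, on the minus strand, at -146 from its first start, and the stretch of HEXIM2 shown held none of the letters searched. Other listed starts differed: the second start of HEXIM2 had CCAAT at -156 and, on the minus strand, at -173, and starts 2 and 4 of BRD2 had GGGCGG at -241 and -116. The search ran on windows from 250 bases before to 50 after a start, and the 9 genes had 17 such windows because BRD2 has 4 listed starts, HEXIM2, LARP7 and CCNT1 a pair each and MEPCE 3. TATAAA was present in 1 of the 17 windows, that of HEXIM1, against 11.5% of 35116 RefSeq promoters. CCAAT was in 6 windows (34.6% of all promoters), GGGCGG in 12 (45.0%) and CACGTG in 2 (7.26%). A match describes letters only and was not tied to the array values.

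HEXIM1 rose in every line at both concentrations, by up to 5.71-fold in mean signal, and it was the 1 gene of the 9 to pass in all 8 comparisons with vehicle. On the LNCaP-labelled arrays its signal was 1826 and 1758 in vehicle, 7750 and 7335 at 0.5 µM, and 10379 and 10078 at 10 µM. On the VCaP-labelled ones it was 2045 and 2113 in vehicle, 5755 and 5176 at 0.5 µM, and 10190 and 9686 at 10 µM. By this probe set both labelled lines reached about the same high level at 10 µM from similar starting levels. Within each label no arrays of different treatments overlapped. In PC3 the signals were 2403 and 2483 in vehicle, 3117 and 3393 at 0.5 µM, and 4573 and 4888 at 10 µM. In NCI-H660 they were 694 and 778, then 1757 and 1419, then 2682 and 2640. By this probe set PC3 began highest and moved least, NCI-H660 began lowest, and the treatments were again apart in both.

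At 0.5 µM the log2 change of HEXIM1 was 2.07 (SE 0.12, limma adjusted p = 6.44e-07) on the LNCaP-labelled arrays and 1.39 (SE 0.12, adjusted p = 6.16e-06) on the VCaP-labelled ones. It was 1.10 (SE 0.12, adjusted p = 0.00037) in NCI-H660 and 0.41 (SE 0.12, adjusted p = 0.0822) in PC3. The PC3 change is small, 1.33-fold, and its call was lost in 22 of 35 alternative settings, among them any fit without a PC3 vehicle or 0.5 µM array (0.35 to 0.47, adjusted p = 0.102 to 0.273 over the 16 arrays whose removal ended it), and without all LNCaP-labelled and VCaP-labelled arrays (adjusted p = 0.278). At 10 µM the changes were 2.51 (adjusted p = 9.32e-09), 2.26 (adjusted p = 4.26e-08), 1.86 (adjusted p = 6.69e-07) and 0.95 (adjusted p = 0.000194) for the LNCaP-labelled arrays, the VCaP-labelled arrays, NCI-H660 and PC3. The comparisons of both concentrations share the same vehicle arrays.

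Setting 10 µM directly against 0.5 µM, HEXIM1 was higher at the larger dose in all 4 lines. The further log2 change was 0.86 (SE 0.12, adjusted p = 0.00169) on the VCaP-labelled arrays, 0.75 (adjusted p = 0.00668) in NCI-H660, 0.54 (adjusted p = 0.0663) in PC3 and 0.44 (adjusted p = 0.042) on the LNCaP-labelled arrays. The labelled LNCaP call was lost when any array at 0.5 or 10 µM was left out (0.40 to 0.48, adjusted p = 0.124 to 0.197). The PC3 call was lost without replicate 1 at 0.5 µM or replicate 2 at 10 µM (0.48 to 0.49, adjusted p = 0.179 to 0.261). In these comparisons 16.5% (LNCaP-labelled arrays), 7.88% (VCaP-labelled arrays), 1.93% (PC3) and 5.86% (NCI-H660) of all probe sets at the signal floor passed in either direction.

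A second HEXIM1 probe set passed in all 8 comparisons as well. Its mean signal went from 612 to 4489 at 10 µM on the LNCaP-labelled arrays and from 325 to 1948 on the VCaP-labelled ones, log2 changes of 2.87 and 2.58. The change at 10 µM was 2.04 in NCI-H660 and 1.03 in PC3, in the same order of lines as by the first. The levels did not match the first, since here the VCaP-labelled arrays lay below the LNCaP-labelled ones in vehicle and at 10 µM. The remaining probe set had group means between 36.3 and 197 and passed in none.

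**Figure D1:**
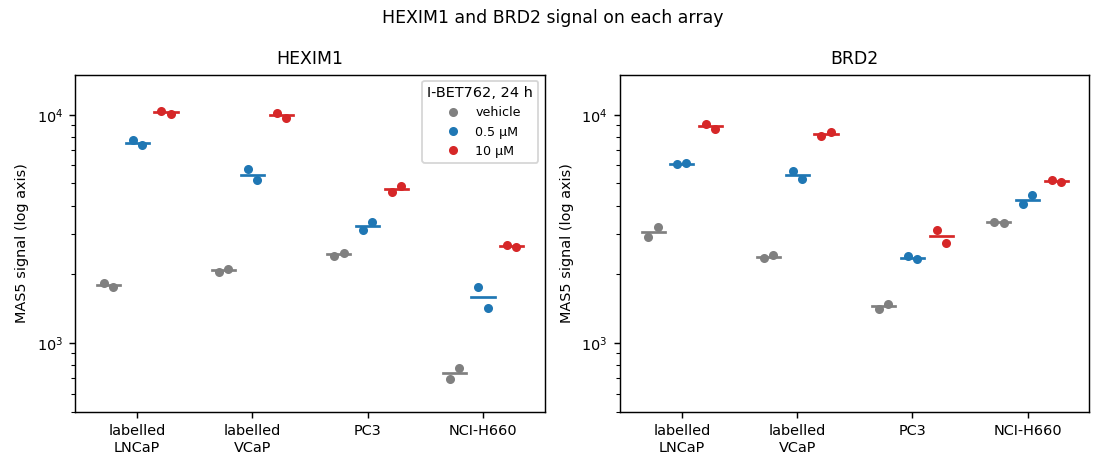
MAS5 signal (log axis) of HEXIM1 (left) and BRD2 (right) for each of the 24 arrays, grouped by the line on the label (x axis) and coloured grey for vehicle, blue for 0.5 µM and red for 10 µM I-BET762 over 24 h; a dot is an array and a bar the mean of 2. In every line the vehicle arrays lie lowest and the 10 µM arrays highest, and HEXIM1 at 10 µM reaches 10379 on an LNCaP-labelled array but no more than 4888 in PC3 and 2682 in NCI-H660.

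BRD2, a BET protein and so a direct target of the drug, passed in 7 of 8 comparisons with vehicle. Its treated arrays lay above vehicle in all 8, as they also did for CCNT1, which passed in 2. With 2 arrays a group, arrays can lie apart without a change, and how often they did over all probe sets was not counted. On the LNCaP-labelled arrays its signal was 2919 and 3225 in vehicle, 6079 and 6120 at 0.5 µM, and 9148 and 8652 at 10 µM. On the VCaP-labelled ones it was 2348 and 2424, then 5659 and 5222, then 8029 and 8418. The rise was stepwise on both, with no overlap between treatments. In PC3 the signals were 1410 and 1481 in vehicle, 2400 and 2325 at 0.5 µM, and 3118 and 2744 at 10 µM. In NCI-H660 they were 3395 and 3355, then 4052 and 4448, then 5191 and 5097. By this probe set NCI-H660 had the highest BRD2 in vehicle and the smallest step, yet its treated arrays still lay above its vehicle arrays.

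The log2 change of BRD2 at 10 µM was 1.78 (SE 0.10, adjusted p = 1.07e-07) on the VCaP-labelled arrays, 1.54 (adjusted p = 1.89e-07) on the LNCaP-labelled ones, 1.02 (adjusted p = 4.71e-05) in PC3 and 0.61 (adjusted p = 0.00155) in NCI-H660. The change at 0.5 µM was 1.19 for VCaP-labelled arrays (adjusted p = 8.13e-06), 0.99 for LNCaP-labelled arrays (adjusted p = 3.87e-05), 0.71 for PC3 (adjusted p = 0.00244) and 0.33 for NCI-H660 (interval 0.11 to 0.56, adjusted p = 0.147). The NCI-H660 value at 0.5 µM did pass by a BRD2 probe set that ends in _x_at (0.58, adjusted p = 0.0177), a kind the choice of probe sets left out. By that probe set PC3 had the smallest change at 0.5 µM (0.49). A further step from 0.5 to 10 µM passed on the LNCaP-labelled arrays (0.54, adjusted p = 0.00694) and on the VCaP-labelled ones (0.60, adjusted p = 0.00767). PC3 and NCI-H660 gave 0.31 and 0.28, each with an adjusted p = 0.235.

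BRD3, the other BET protein measured, did not follow BRD2. On the LNCaP-labelled arrays its signal was 4732 and 5167 in vehicle, 6255 and 6182 at 0.5 µM, and 8460 and 8169 at 10 µM, a log2 change of 0.75 (SE 0.17, adjusted p = 0.00408) at the larger dose. On the VCaP-labelled ones it was 3114 and 3037, then 2789 and 2936, then 2596 and 2477, a change of -0.28 (interval -0.64 to 0.08, adjusted p = 0.329). So the treated arrays lay above vehicle under the one label and below it under the other. PC3 (-0.02) and NCI-H660 (-0.10) overlapped with vehicle at 10 µM. By a second BRD3 probe set the same split appeared, with 0.44 (adjusted p = 0.0112) on the LNCaP-labelled arrays and -0.33 (adjusted p = 0.0696) on the VCaP-labelled ones. Averaging all probe sets of BRD3 ended the call on the LNCaP-labelled arrays (0.30). That mean includes a probe set under the floor in every group (group means 20.4 to 63.5).

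CDK9, the catalytic subunit of P-TEFb, rose on the arrays of both labelled lines by less than HEXIM1 and BRD2 did. Its signal on the VCaP-labelled arrays was 782 and 755 in vehicle, 1090 and 1035 at 0.5 µM, and 1242 and 1231 at 10 µM, log2 changes of 0.47 (adjusted p = 0.0381) and 0.69 (adjusted p = 0.00181). On the LNCaP-labelled ones it was 1043 and 1150, then 1266 and 1279, then 1467 and 1655, with 0.51 at 10 µM (adjusted p = 0.00941) but 0.22 at the lower dose (adjusted p = 0.344). The change at 0.5 µM on the VCaP-labelled arrays lost its call when any of its 4 arrays was left out (0.43 to 0.51, adjusted p = 0.111 to 0.174), and averaging the probe sets of CDK9, a part of which lie under the floor, ended all 3 calls. PC3 arrays overlapped with vehicle at both doses. NCI-H660 gave 0.40 (adjusted p = 0.151) and 0.31 (adjusted p = 0.145), and neither passed.

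The cyclins that pair with CDK9 differed. CCNT1 gave 1833 and 1764 in vehicle, 2462 and 2426 at 0.5 µM, and 3014 and 2683 at 10 µM on the LNCaP-labelled arrays, log2 changes of 0.44 (adjusted p = 0.0562) and 0.66 (adjusted p = 0.00306). The first of these lost its call when any of its 4 arrays was left out (0.42 to 0.47, adjusted p = 0.141 to 0.207). Elsewhere CCNT1 had changes of 0.18 to 0.29, and none passed. CCNT2 passed in 0 of 8 comparisons by limma, and 1 had an unadjusted p under 0.05. Its changes ran from -0.39 (interval -0.82 to 0.04) in PC3 at 10 µM to 0.51 (interval 0.08 to 0.94, adjusted p = 0.127) on the LNCaP-labelled arrays at 0.5 µM. Without replicate 1 of PC3 vehicle the PC3 value was -0.69 and passed (adjusted p = 0.0768), and the LNCaP-labelled value at 0.5 µM passed in 5 of 35 alternative settings (0.44 to 0.51, adjusted p = 0.0583 to 0.0901). Other probe sets of CCNT2 were higher in 1 comparison each, with 0.62 (adjusted p = 0.0393) on the VCaP-labelled arrays at 10 µM and 0.72 (adjusted p = 0.0984) on the LNCaP-labelled arrays at 0.5 µM, while the third did not pass.

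HEXIM2, the paralogue that holds P-TEFb in the same way as HEXIM1, passed in 0 of 8 comparisons by limma, with 1 at an unadjusted p under 0.05. Its signal on the LNCaP-labelled arrays was 316 and 316 in vehicle and 354 and 436 at 10 µM, a log2 change of 0.31 (interval -0.19 to 0.82). On the VCaP-labelled ones it was 571 and 584 in vehicle and 669 and 739 at 10 µM, a change of 0.28 (interval -0.22 to 0.79). In NCI-H660 the arrays at 10 µM, 227 and 332, overlapped with the vehicle arrays at 317 and 331. In PC3 at 0.5 µM they were apart, at 420 and 356 against 199 and 306 (0.65, interval 0.14 to 1.15, adjusted p = 0.179). That PC3 value passed without replicate 2 of PC3 vehicle (0.96, adjusted p = 0.0931) and with an intensity trend (adjusted p = 0.0934), and HEXIM1 itself changed by 0.41 there. Under the LNCaP and VCaP labels the intervals of HEXIM2 at 10 µM lay below the HEXIM1 changes of 2.51 and 2.26, whereas in PC3 at 0.5 µM the interval of HEXIM2 held the HEXIM1 change. A second, dimmer probe set of HEXIM2 also passed in 0 of 8 comparisons by limma, with 2 at an unadjusted p under 0.05, but its change was negative in 7 of 8. At 10 µM it gave -0.58 (interval -1.05 to -0.10, adjusted p = 0.103) on the VCaP-labelled arrays and -0.49 (interval -0.96 to -0.01, adjusted p = 0.197) in NCI-H660. The chosen probe set had a positive change in 7 of 8, so the 2 probe sets of HEXIM2 differ in sign in most comparisons. They did so at both doses under the LNCaP and the VCaP labels, so the direction of HEXIM2 was not settled.

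LARP7, which protects the end of 7SK, rose at 0.5 µM on the LNCaP-labelled arrays, from 1333 and 1486 to 1872 and 1870 (log2 change 0.41, SE 0.10, adjusted p = 0.015), and stood at 1608 and 1533 at 10 µM (0.16, adjusted p = 0.321). Leaving out replicate 1 of the vehicle ended that call (0.33, adjusted p = 0.124). On the VCaP-labelled arrays it went from 1300 and 1415 to 1676 and 1599 at 10 µM (0.27, adjusted p = 0.0865), a call lost in 22 of 35 alternative settings, with adjusted p = 0.101 to 0.371 over the 16 arrays whose removal ended it. A dimmer probe set of LARP7 was higher at both doses on the LNCaP-labelled arrays (0.75 and 1.17) and at 10 µM on the VCaP-labelled ones (0.63). The 2 probe sets therefore differ on whether LARP7 was higher at 10 µM under the LNCaP label.

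MEPCE, the enzyme that caps 7SK, had a single probe set and passed only in NCI-H660 at 10 µM. Its signal there was 1369 and 1527 in vehicle, 1930 and 1825 at 0.5 µM, and 2190 and 2285 at 10 µM, a log2 change of 0.63 (SE 0.23, adjusted p = 0.0927) at 10 µM that was lost in 24 of 35 alternative settings (adjusted p = 0.105 to 0.321 over the 20 arrays whose removal ended it), and without all LNCaP-labelled and VCaP-labelled arrays (adjusted p = 0.239). The LNCaP-labelled and VCaP-labelled arrays lay below their vehicle arrays at 10 µM, with changes of -0.36 (adjusted p = 0.321) and -0.35 (adjusted p = 0.374). The vehicle replicates of PC3 were far apart, at 2235 and 1269.

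**Figure D2:**
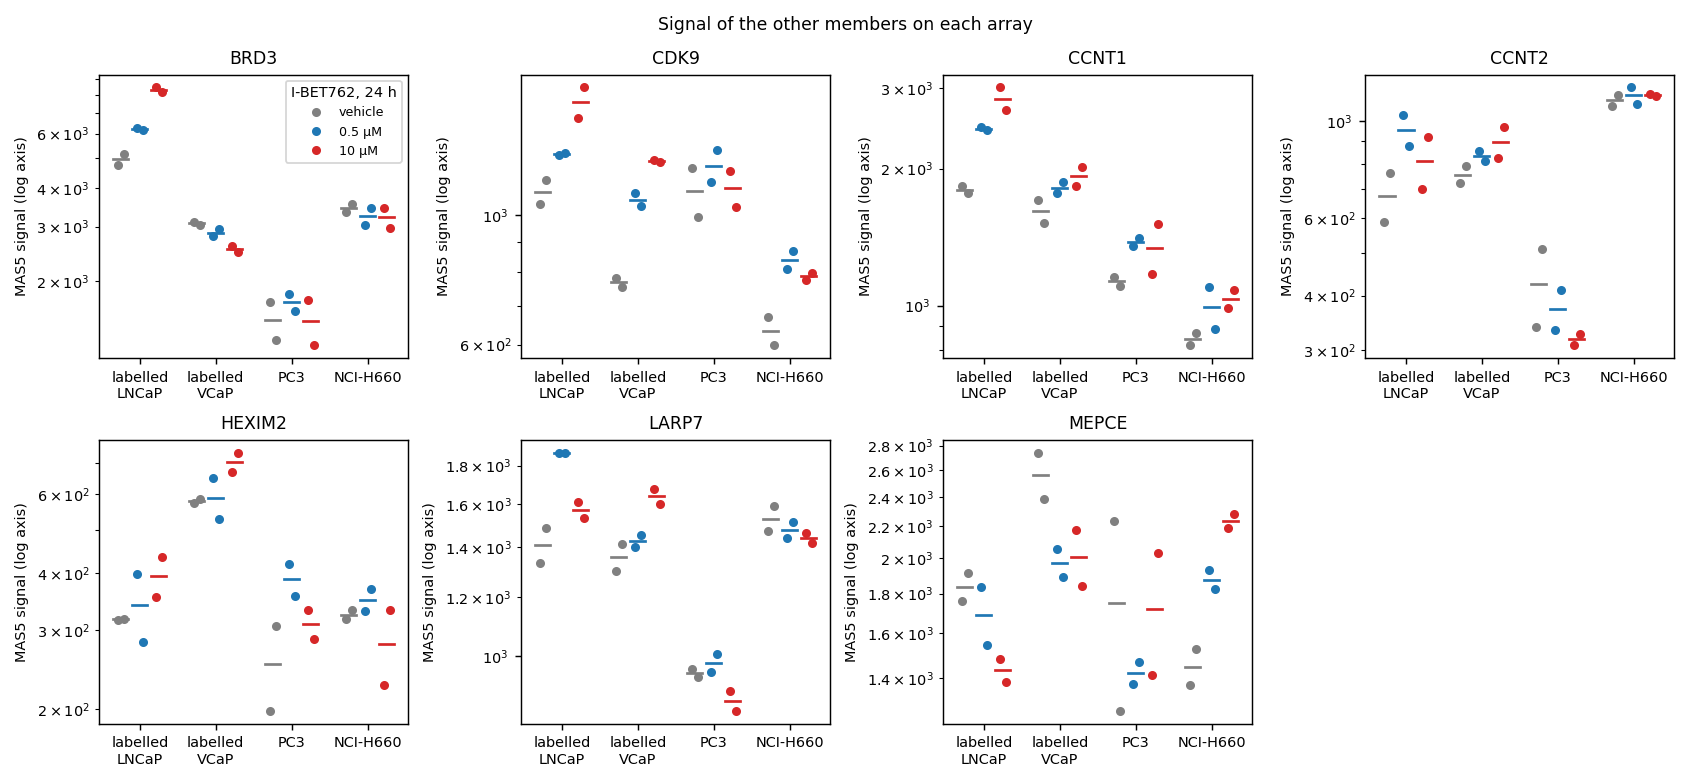
MAS5 signal (log axis, a different range in each panel) of BRD3, CDK9, CCNT1, CCNT2, HEXIM2, LARP7 and MEPCE for each of the 24 arrays, grouped by the line on the label (x axis) and coloured grey for vehicle, blue for 0.5 µM and red for 10 µM I-BET762 over 24 h; a dot is an array and a bar the mean of 2. BRD3 climbs from 4732 to 8460 on LNCaP-labelled arrays only, while the arrays of CCNT2 and HEXIM2 overlap between treatments in several lines.

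Counted over genes, more members passed under the labels LNCaP and VCaP than in PC3 and NCI-H660. At 0.5 µM, 4 of 9 genes were higher on the LNCaP-labelled arrays, where 16.4% of all probe sets at the floor were higher and 13% lower, and 3 of 9 on the VCaP-labelled ones (10.9% higher and 10.1% lower). In PC3, 2 of 9 were higher (5.45% and 3.45%), and in NCI-H660 1 of 9 (3.14% and 2.41%). At 10 µM the numbers were 5 of 9 on the LNCaP-labelled arrays (26.8% and 22.5%), 4 of 9 on the VCaP-labelled ones (20.1% and 17.2%), 2 of 9 in PC3 (13.5% and 12.1%) and 3 of 9 in NCI-H660 (13.8% and 14.7%). With so few genes, a share such as 2 of 9 lies near the background of PC3 at 10 µM. By its chosen probe set, no member was called lower than vehicle in any of the 36 pairs of gene and line at either dose by limma, and 0 had a lower value at an unadjusted p under 0.05. HEXIM1 and BRD2 made up 7 of the 10 pairs called at 0.5 µM and 8 of the 14 at 10 µM.

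**Figure D3:**
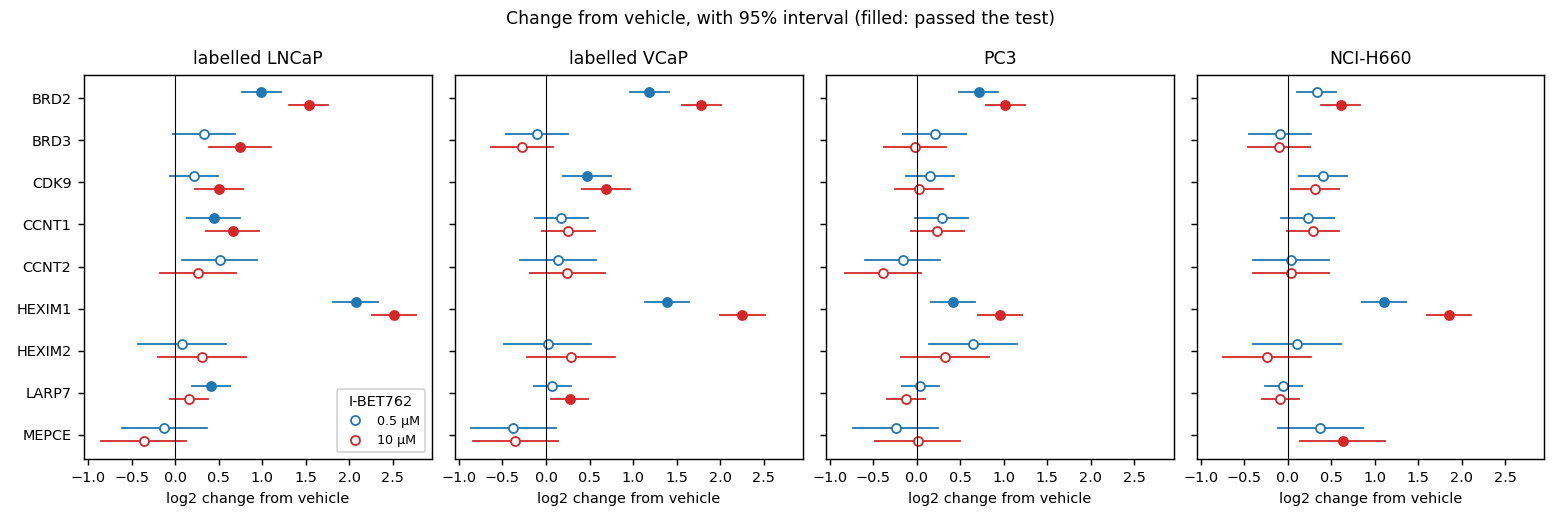
Log2 change from vehicle of the 9 genes at 0.5 µM (blue) and 10 µM (red) in each labelled line, with 95% confidence intervals from the limma fit; filled circles passed and open circles did not. HEXIM1 lies farthest to the right in 3 of the 4 panels, at 2.51 on the LNCaP-labelled arrays at 10 µM, and BRD2 reaches 1.02 against 0.95 for HEXIM1 in PC3.

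Whether the change differed between lines was tested directly, by a moderated F over the 4 lines. At 0.5 µM, HEXIM1 (adjusted p = 0.000374) and BRD2 (adjusted p = 0.0124) differed between lines, 2 of 9 genes against 14.5% of all probe sets at the floor. At 10 µM, HEXIM1 (adjusted p = 0.000134), BRD2 (adjusted p = 0.000357), BRD3 (adjusted p = 0.0243) and CDK9 (adjusted p = 0.0704) differed, 4 of 9 against 37.5%, a share near the background. The CDK9 result was lost when any 1 of 8 arrays was left out. It was also lost with quantile normalization, median centring, the replicate number as a block or the mean over probe sets. The BRD3 result was lost with the mean over probe sets (moderated F, adjusted p = 0.26). That mean includes a BRD3 probe set under the floor in every group. The second bright BRD3 probe set passed by itself (moderated F, adjusted p = 0.0121). HEXIM1 at 10 µM rose more on the LNCaP-labelled arrays than in PC3 by 1.56 (adjusted p = 7.33e-05) and than in NCI-H660 by 0.66 (adjusted p = 0.0181), and more on the VCaP-labelled ones than in PC3 by 1.30 (adjusted p = 0.000481). NCI-H660 in turn exceeded PC3 by 0.90 on the log2 scale (PC3 minus NCI-H660, -0.90, adjusted p = 0.01). For BRD2 the order of those lines was the other way, with PC3 above NCI-H660 by 0.41, which was not past the threshold (adjusted p = 0.17). Both labelled lines exceeded NCI-H660 in the BRD2 change at 10 µM, by 0.93 (adjusted p = 0.000869) and 1.18 (adjusted p = 0.000252), and PC3 by 0.52 (adjusted p = 0.0403) and 0.77 (adjusted p = 0.00731).

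The labels LNCaP and VCaP could be set against each other as well. HEXIM1 rose further under the LNCaP label at 0.5 µM by 0.68 (adjusted p = 0.0493) and at 10 µM the difference was 0.26 (adjusted p = 0.463). BRD3 separated them at 10 µM by 1.03 (SE 0.23, adjusted p = 0.0164), while BRD2 did not (-0.25, adjusted p = 0.404). The MEPCE change at 10 µM was negative under both labels and positive in NCI-H660, differences of -0.99 (adjusted p = 0.058) and -0.98 (adjusted p = 0.0733), although its F over all 4 lines did not pass (adjusted p = 0.105).

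The vehicle level of all 9 genes differed between lines by the moderated F, where 87.5% of all probe sets at the floor did. HEXIM1 ran from 2443 ± 56.6 (SD, n = 2) in PC3 through 2079 ± 48.3 (labelled VCaP) and 1792 ± 47.8 (labelled LNCaP) to 736 ± 59.9 in NCI-H660. Neighbours in that order did not differ past the threshold except at its lower end. There the LNCaP-labelled arrays lay above NCI-H660 by 1.29 on the log2 scale (limma adjusted p = 8.86e-07). A second HEXIM1 probe set gave another order, 612 ± 19.5 (labelled LNCaP), 577 ± 40.7 (PC3), 325 ± 6.1 (labelled VCaP) and 149 ± 1.8 (NCI-H660). BRD2 ran from 3375 ± 28.0 in NCI-H660 through 3072 ± 216 (labelled LNCaP) and 2386 ± 54.4 (labelled VCaP) to 1446 ± 50.3 in PC3. The NCI-H660 and labelled LNCaP levels were not told apart (adjusted p = 0.344), and the other neighbours differed (adjusted p = 0.0166 and 8.23e-05). The other BRD2 probe sets put the LNCaP-labelled arrays slightly above NCI-H660, at 2613 against 2477 and 3285 against 3269.

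PC3 was also lowest for BRD3, at 1499 ± 297 against 4949 ± 308 at the top on the LNCaP-labelled arrays, with labelled VCaP and NCI-H660 between them at 3075 ± 54.7 and 3447 ± 159 and not told apart (adjusted p = 0.504). It was lowest for LARP7 at 951 ± 16.4, where the other lines lay between 1357 and 1528 and were not told apart. CCNT2 ran from 1116 ± 44.2 in NCI-H660 to 425 ± 122 in PC3, whereas CCNT1 ran from 1798 ± 48.9 (labelled LNCaP) to 844 ± 38.4 in NCI-H660. The cyclins thus ranked NCI-H660 at opposite ends. CDK9 gave 1097 ± 75.6 on the LNCaP-labelled arrays and 1098 ± 151 in PC3, above 768 ± 19.1 (labelled VCaP) and 634 ± 50.9 (NCI-H660). HEXIM2 was highest on the VCaP-labelled arrays, at 577 ± 9.0, with the other lines between 252 and 324. MEPCE was highest there too, at 2562 ± 252, and its F result (adjusted p = 0.0361) was lost without replicate 1 of vehicle of the VCaP-labelled arrays or of NCI-H660 (adjusted p = 0.103 to 0.203).

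**Figure D4:**
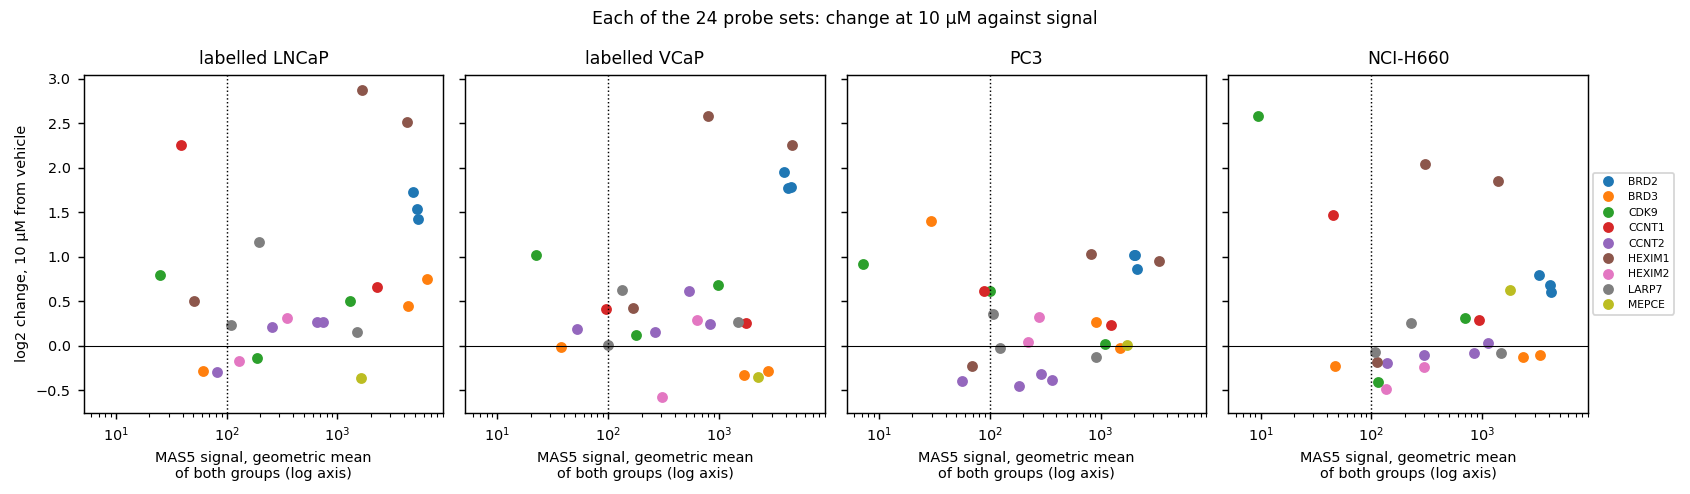
Log2 change at 10 µM against the geometric mean MAS5 signal of both groups (log axis) for each of the 24 probe sets, coloured by gene, in each labelled line; the dotted line marks a signal of 100. The 3 probe sets of BRD2 lie close together, both bright probe sets of HEXIM1 lie high in every panel, and several wide changes lie to the left of the dotted line, where signals are near background.

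Across the 24 arrays, with the mean of its line taken from each array, HEXIM1 and BRD2 correlated at r = 0.93, HEXIM1 and CCNT1 at 0.83, HEXIM1 and CDK9 at 0.80, and HEXIM1 and HEXIM2 at 0.24. These are descriptions, since the arrays share treatments and scaling. Among 8742 genes compared in this way, those most like HEXIM1 were CYB5R4 (0.984), PNPLA8 (0.983), RETSAT (0.976), TBRG1 (0.968) and ABCC10 (0.967). Those most like BRD2 were ZSWIM6 (0.990), RSRP1 (0.985), RRAGC (0.978), KHNYN (0.978) and MAP1LC3B (0.976). For BRD3 the closest was PRKCI at 0.820, so no gene followed it as closely.

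Further genes of transcription elongation were read beside the members: the super elongation complex, the DSIF and NELF pausing factors, the PAF1 complex, other kinases and phosphatases of RNA polymerase II, the Mediator kinase module, and factors that free P-TEFb or bind 7SK. Of 52 listed, 49 had a probe set, all but NELFA, NELFE and SRSF2. Over the 4 lines, 17 pairs of gene and line were higher and 17 lower at 0.5 µM among 191 at the floor, 8.90% in each direction against 8.88% and 7.14% of all probe sets at the floor in the 4 lines together. After median centring 4 were higher and 17 lower at that dose. At 10 µM, 43 of 190 were higher and 29 lower, 22.6% and 15.3% against 18.5% and 16.6%. These shares lie near those of all probe sets. On the LNCaP-labelled arrays at 10 µM, 13 were higher and 9 lower, with a median log2 change of 0.08 against 0.51 for the 9 members and 0.09 for all probe sets. On the VCaP-labelled ones the numbers were 10 and 10, with medians of 0.02, 0.27 and 0.08. PC3 had 11 and 7 (0.11, 0.02 and 0.00) and NCI-H660 9 and 3 (0.04, 0.29 and -0.04).

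Within the super elongation complex, which carries P-TEFb to genes, 3 of 8 genes at the floor were higher and 1 lower on the LNCaP-labelled arrays at 10 µM, near the 26.8% and 22.5% of all probe sets, and on the VCaP-labelled ones 3 of 10 were higher and 0 lower (20.1% and 17.2%). AFF4, a scaffold of the complex, was higher at 10 µM on the LNCaP-labelled arrays, from a mean of 1812 to 4037 (log2 change 1.16, adjusted p = 0.000115), on the VCaP-labelled ones (0.74) and in PC3 (0.58), with 0.01 in NCI-H660. The scaffold AFF1 was higher at 10 µM under both labels (0.59 and 0.89). The reader MLLT3 was higher at 10 µM on the LNCaP-labelled (1.04) and the VCaP-labelled arrays (0.86) and in PC3, at 163 against 82.2 in vehicle, at least 1.63-fold above a floor of 100. EAF2, a partner of the ELL factors, fell on the LNCaP-labelled arrays from 1134 to 424 (-1.42, adjusted p = 1.28e-05) and was higher in PC3 (0.50, adjusted p = 0.0541). ELL2, an elongation factor, went from 40.3 in vehicle to 129 and 215 in NCI-H660, at least 1.29-fold and 2.15-fold above that floor, and did not pass elsewhere.

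Of the pausing factors, NELFCD, a subunit of NELF, fell at 10 µM in all 4 lines, by limma adjusted p, with changes of -0.79 (LNCaP-labelled arrays), -0.54 (VCaP-labelled arrays), -0.60 (PC3) and -1.38 (NCI-H660, from 4042 to 1553, adjusted p = 1.78e-06). At 0.5 µM it fell on the LNCaP-labelled arrays (-0.37) and in NCI-H660 (-0.50). NELFCD was read by a probe set that ends in _x_at, taken only where no other was annotated. The other pausing factors, SUPT4H1, SUPT5H and NELFB, passed in no line at either dose. At 10 µM, 22.5% (LNCaP-labelled arrays), 17.2% (VCaP-labelled arrays), 12.1% (PC3) and 14.7% (NCI-H660) of all probe sets at the floor were lower. In the PAF1 group, CTR9 and RTF1 were each higher at 10 µM in all 4 lines, CTR9 by 0.52 to 1.07 and RTF1 by 0.38 to 1.05. LEO1 fell at both doses on the LNCaP-labelled (-0.45 and -0.53) and the VCaP-labelled arrays (-0.76 and -1.11). In the Mediator kinase module, MED13 was higher at both doses on the LNCaP-labelled (0.55 and 0.73) and the VCaP-labelled arrays (1.17 and 1.22) and fell in PC3 at 10 µM (-0.47). MED12 fell in NCI-H660 at 10 µM (-1.53), and at that dose MED13L was higher on the LNCaP-labelled arrays (1.45) and fell in PC3 (-1.13). Differences between lines were not tested for these genes.

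Factors that free P-TEFb from 7SK or bind 7SK gave 2 higher and 6 lower of 11 on the LNCaP-labelled arrays at 10 µM (26.8% and 22.5% of all probe sets), 2 and 5 on the VCaP-labelled ones (20.1% and 17.2%), 4 and 4 in PC3 (13.5% and 12.1%), and 2 and 1 in NCI-H660 (13.8% and 14.7%). The RNA helicase DDX21 fell at both doses on the LNCaP-labelled arrays (-0.82 and -1.05), the VCaP-labelled arrays (-0.50 and -0.77) and in PC3 (-0.40 and -0.48), and was higher in NCI-H660 at 10 µM (0.40). JMJD6, an enzyme of P-TEFb release, fell at both doses in the same 3 lines, with changes of -0.71 and -0.53, -0.65 and -0.70, and -0.44 and -0.55. Others of the list went the other way at 10 µM. PPM1A was higher in 3 lines, and PPP1CA and TRIM28 were higher in 2 each, all with 0 lower. Of the hnRNP proteins that bind free 7SK, HNRNPA2B1 fell at 10 µM in all 4 lines (-0.73 to -0.40). SYNCRIP fell at both doses in all lines but NCI-H660 (-0.73 to -0.47 over the calls). HNRNPA1 was higher in PC3 at both doses (0.48 and 0.81, from a mean of 396 in vehicle) and in NCI-H660 at 10 µM (0.65). Its probe set was much dimmer than that of HNRNPA2B1, which had a mean of 11310 in NCI-H660 vehicle. SSU72, a phosphatase of the polymerase tail, fell on the VCaP-labelled arrays at both doses (-0.88 and -0.84).

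**Figure D5:**
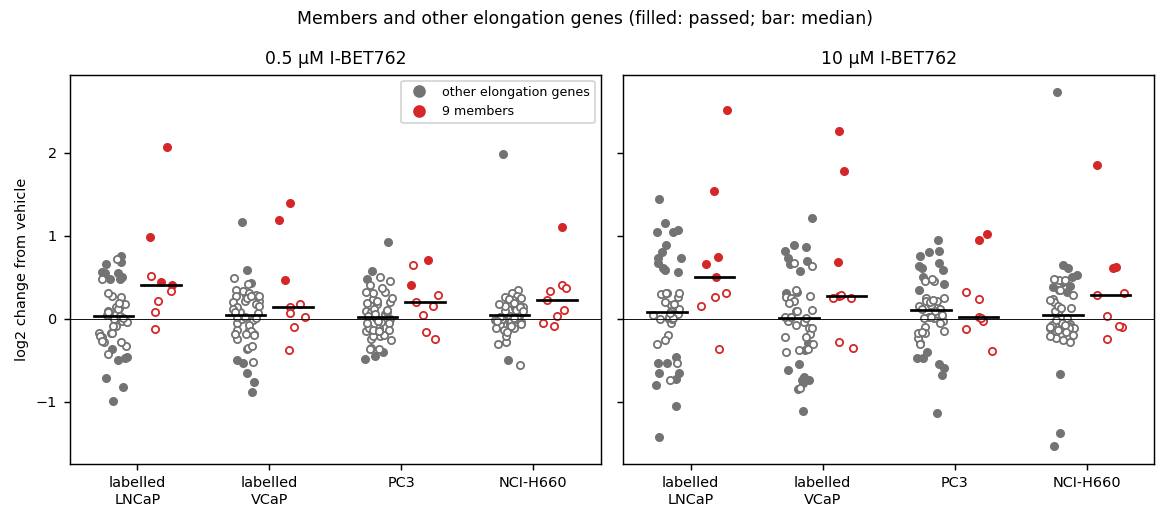
Log2 change from vehicle at 0.5 µM (left) and 10 µM (right) of the other elongation genes (grey) and the 9 members (red) at the signal floor, in each labelled line; each dot is a gene, filled if it passed, and bars are medians. The grey dots spread to both sides of 0 in each line, and the filled red dots all lie above 0, up to 2.51.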

How the data were processed

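RNA of 24 samples (4 lines, 3 treatments, 2 biological replicates) had been hybridised to Affymetrix U133 Plus 2.0 arrays. The authors computed MAS5 signals, deposited as an intensity on a linear scale and scaled to a target of 500; a check gave a trimmed mean of 500 on every array. Detection calls and files of single probes were not analysed here. Because MAS5 scaling sets every array to the same trimmed mean, a change shared by most transcripts would not show.

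Of the deposited probe sets, 62 controls were left out. Log2 signals entered limma 3.58.1 (R 4.3.3) as a single model of 12 groups, without an intensity trend (12 residual degrees of freedom, prior 1.29). Contrasts were each dose against vehicle, 10 µM against 0.5 µM, differences of the change between lines, and vehicle levels between lines, with Benjamini-Hochberg adjustment over 54613 probe sets within a contrast. A probe set passed at an adjusted p under 0.1 where at least 1 of the groups compared had a mean signal of 100 or more, a floor in place of the authors' detection calls; their fold minimum of 2 was an alternative. The background percentages count probe sets that reached the floor in that comparison. Each gene took its brightest probe set by mean log2 signal, and probe sets ending in _x_at only where no other was annotated. Elongation genes named are, per line and dose, up to 4 of those that passed with arrays apart, by size of change. A few others of the same lists are named beside them. Folds against a group under the floor are bounds against 100. Likeness is Pearson's r over line-centred arrays.

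The members, gene lists and tests were chosen with earlier results of these data known. The fit was tested on simulated data. Promoters and gene spans are from RefSeq (GRCh38.p14), and all 9 symbols matched. The precision is limited by 2 arrays a group. Alternatives were no floor or 1 of 200, median centring, quantile normalization, each line alone, an intensity trend, the replicate number as a block, an adjusted p under 0.05, a fold over 2, the mean over probe sets, log2(signal + 32), leaving out each array, and, chosen after seeing the data, leaving out all LNCaP-labelled and VCaP-labelled arrays.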

Additional observations from a re-analysis of the deposited data

Results flagged for a closer look

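Each of the following genes changed to a different extent in the 4 labelled lines by a moderated F test of the difference itself. At 0.5 µM these were HEXIM1 (adjusted p = 0.000374) and BRD2 (adjusted p = 0.0124). At 10 µM they were HEXIM1 (adjusted p = 0.000134), BRD2 (adjusted p = 0.000357), BRD3 (adjusted p = 0.0243) and CDK9 (adjusted p = 0.0704). Of all probe sets at the floor, 14.5% differed at 0.5 µM and 37.5% at 10 µM. The CDK9 result was lost with quantile normalization, median centring, the replicate number as a block or the mean over probe sets. That mean, which includes a BRD3 probe set under the floor in every group, also ended the BRD3 result. The changes of HEXIM1 at 10 µM ran from 0.95 in PC3 to 2.51 on the LNCaP-labelled arrays, and those of BRD2 from 0.61 in NCI-H660 to 1.78 on the VCaP-labelled arrays. BRD3 ran from -0.28 on the VCaP-labelled arrays to 0.75 on the LNCaP-labelled ones, and CDK9 from 0.02 in PC3 to 0.69 on the VCaP-labelled arrays.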

How the results depend on the processing

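Of the genes and lines called higher at 0.5 µM (10), 6 were called after median centring, 4 with each line fitted alone and 4 with a fold over 2; at 10 µM (14), a fold over 2 left 6. Leaving out each array in turn gave 7 to 11 at 0.5 µM and 12 to 14 at 10 µM, with 0 to 0 and 0 to 1 lower. Of the 6 called higher at 10 µM than at 0.5 µM, each line alone and a fold over 2 left 0, leaving out an array gave 5 to 6, and an intensity trend called 1 lower. Genes whose change differed between lines numbered 2 at 0.5 µM (1 after median centring, 2 to 2 without an array) and 4 at 10 µM (2 with the mean over probe sets, 3 to 5 without an array), and vehicle levels differed for 8 to 9 genes without an array. Median centring shifted the median of all changes, by -0.18 (0.5 µM) and -0.13 (10 µM) for LNCaP-labelled arrays and, at 10 µM, by -0.13 for VCaP-labelled arrays and 0.18 for NCI-H660; no called direction turned under it. Without all LNCaP-labelled and VCaP-labelled arrays, 2 of 3 calls in PC3 and NCI-H660 were made at 0.5 µM and 4 of 5 at 10 µM. The cause of these differences was not tested.

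Elongation genes called higher at 0.5 µM (17) numbered 4 after median centring, 26 with a trend, 3 with each line alone, 8 at an adjusted p under 0.05, 2 with a fold over 2, 10 with the mean over probe sets and 11 to 16 without an array. Those lower (17) numbered 26 with a trend, 3 alone, 0 with a fold over 2, 11 with the mean over probe sets and 13 to 17 without an array. At 10 µM, 43 higher became 22 alone and 7 with a fold over 2 (36 to 45 without an array), and 29 lower became 19 and 6 (26 to 31).

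Replicate numbers did not pair the samples: deviations of same-numbered arrays correlated at -0.078 to 0.140. With the replicate number as a block, 8 genes and lines were called higher at 0.5 µM and 12 at 10 µM, 5 were higher at 10 than at 0.5 µM, and elongation genes gave 13 higher and 12 lower at 0.5 µM and 39 and 27 at 10 µM. Differences between lines gave 2 and 3 genes under the block and vehicle levels 9.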
